A study of Caenorhabditis elegans with 12 samples.

Results

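The genes described here code for proteins that build and run the sperm of Caenorhabditis elegans. They are the major sperm protein (msp) genes, the spermatogenesis-defective (spe) genes, the sperm-specific protein (ssp) genes, the nematode-specific peptide family d (nspd) genes and the protein phosphatase genes gsp-3 and gsp-4. They were chosen by symbol in the WBcel235 annotation, and every row of the count table with such a symbol and any count was kept. This gave 76 genes of the 27928 in the table, made up of 28 msp, 26 spe, 12 ssp, 8 nspd and 2 gsp genes. In all, 84 rows carry such a symbol. The 3 on chromosome III (spe-6, spe-41 and nspd-9) and 5 others (msp-31, msp-33, msp-45, spe-26 and nspd-10) held 0 counts in all 12 libraries and were left out. Of the 76 genes, 74 had enough counts to be tested, and the other 2, nspd-8 and ssp-37, did not.

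RNA was sequenced from whole worms of the wild-type strain N2, in 6 pools on vitamin D and 6 pools on the vehicle DMSO, kept at 20 °C and treated for 44 h. The sources conflict on the vitamin D dose (100 µM or 100 mM), on the size of a pool (50 or 40 worms) and on the stage at which treatment began (L4 larvae or 1 day of age). Each pool is described as an independent biological replicate. All worms were of 1 genotype, and the labels do not give the number of hermaphrodites and males in a pool.

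In a hermaphrodite the germline makes sperm first, during the last larval stage, and then switches to oocytes for the rest of life, so that the sperm present in an adult are a store laid down earlier. MSP forms the cytoskeleton with which the amoeboid sperm crawls, and released MSP is also the signal by which sperm trigger oocyte maturation. The spe genes were found through mutants with defective sperm and act in the making, activation and function of sperm, whereas gsp-3 and gsp-4 code for sperm forms of protein phosphatase 1 needed in sperm meiosis and motility. Because RNA came from whole worms, fewer sperm-forming cells and less sperm RNA per cell cannot be told apart in any value given here.

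Libraries held 31383203 to 38720736 counts with vitamin D and 30203731 to 35230983 with vehicle. All 2800 table rows on chromosome III were at 0 in every library. Libraries of 1 treatment differed widely: vehicle libraries 2 and 3 stood apart from the other vehicle libraries, and vitamin D library 5 from the other vitamin D libraries, so the results are given with and without vehicle libraries 2 and 3. Values are CPM, counts relative to library size, with library sizes scaled by edgeR's TMM factors, and fold changes are vitamin D over vehicle. In edgeR's quasi-likelihood test, 492 of 13460 tested genes (3.66%) passed a Benjamini-Hochberg adjusted p of 0.05, of which 1.9% of the tested genes were lower with vitamin D and 1.75% higher.

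Sperm transcripts differed more among the vehicle libraries than between the treatments. The summed level of the 28 msp genes was 1356, 1578, 1502, 1810, 3383 and 1562.5 CPM in vitamin D libraries 1 to 6. In vehicle libraries 1 to 6 it was 3648, 608, 479, 5186, 4645 and 4465 CPM. All 6 vitamin D libraries therefore lay above vehicle libraries 2 and 3 and below the other 4 vehicle libraries. The highest vehicle library had 10.8 times the msp level of the lowest, whereas among vitamin D libraries the ratio was 2.49.

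The other classes had the same arrangement, with a smaller range for the spe genes. The ssp sum had a lowest, median and highest value of 151, 165 and 312 CPM with vitamin D, and of 77.2, 382 and 509 CPM with vehicle. The nspd sum had 202, 242 and 413 CPM with vitamin D, and 108, 634 and 892 CPM with vehicle. For gsp-3 and gsp-4 together the values were 145, 159 and 234 CPM with vitamin D and 85.8, 275 and 350.2 CPM with vehicle. In each of these 3 classes vehicle libraries 2 and 3 were the lowest of 12, the other vehicle libraries were the highest, and vitamin D library 5 was the highest of its treatment. The spe sum had 639, 719 and 832 CPM with vitamin D and 437, 933 and 1131 CPM with vehicle, again with all vitamin D libraries between the low and the high vehicle libraries. Together the 76 genes took 0.112% to 0.781% of a library's counts, and both extremes were vehicle libraries (3 and 4).

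**Figure D1:**
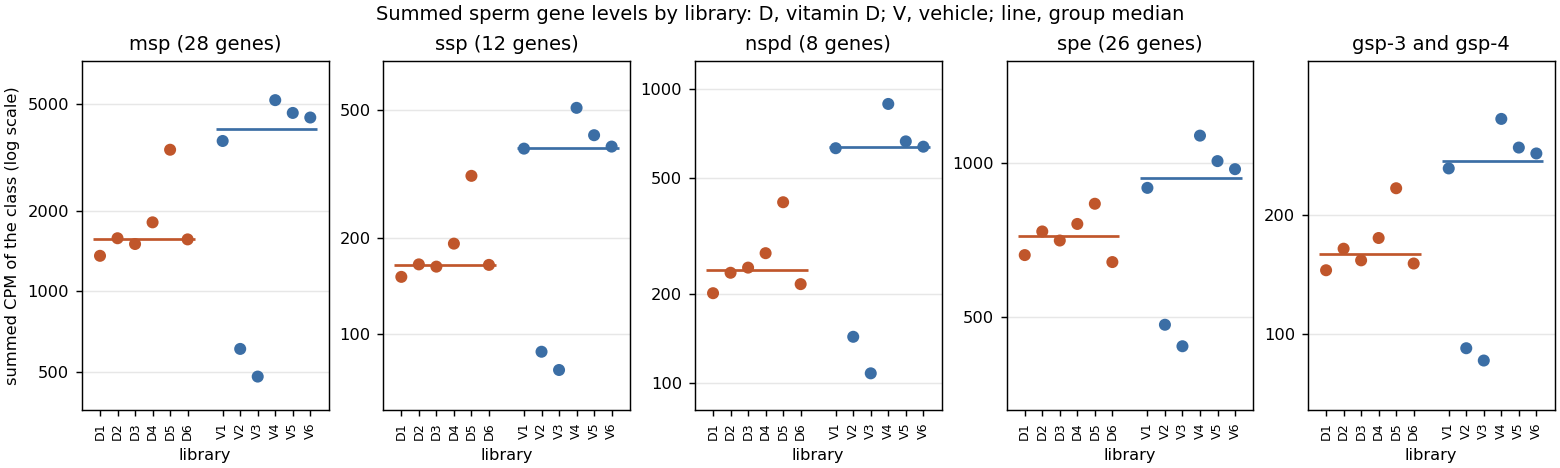
Summed level of each class of sperm genes in CPM (log axis) in the 6 vitamin D libraries (D1 to D6) and the 6 vehicle libraries (V1 to V6), with a line at each group's median. In all 5 panels V2 and V3 are the lowest points, V1 and V4 to V6 the highest, and D5 stands above the other vitamin D libraries.

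No sperm gene passed the threshold between vitamin D and vehicle. In edgeR's quasi-likelihood test 0 of the 74 tested genes were lower and 0 were higher, against 3.66% called among all tested genes. The adjusted p-values ran from 0.261 to 0.996. An unadjusted p under 0.05 was found for 3 of the 74 (ssp-16, nspd-7 and spe-48), against 16.7% of all tested genes. DESeq2 also called 0 lower and 0 higher among 75 sperm genes with an adjusted p, against 7.72% of all its genes, and 10 of the 75 had an unadjusted p under 0.05, against 17.8% of all its genes. The fitted log2 fold change was nonetheless negative for 67 of 74 sperm genes, against 50.5% of all tested genes, with a median of -0.67 against -0.00 for all tested genes. By class the median was -0.77 for msp, -0.70 for ssp, -0.89 for nspd, -0.42 for gsp and -0.16 for spe genes. All 28 msp, 11 ssp, 7 nspd and 2 gsp genes tested were negative, and the 7 positive genes were all spe genes.

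The arrangement of libraries was nearly the same from gene to gene. All vitamin D libraries lay within the range of the vehicle libraries for 71 of 74 sperm genes, against 31.4% of all tested genes, and the treatments were fully separated for 0 of 74, against 3.9%. Vehicle libraries 2 and 3 were the lowest 2 of 12 for 63 of 74, against 2025 of the 13460 tested genes. Vitamin D library 5 was the highest of its treatment for 58 of 74, against 31.0%. The SD of log2 CPM was larger among vehicle than among vitamin D libraries for 73 of 74 sperm genes, against 64.3% of all tested genes. Its median was 0.39 with vitamin D and 1.24 with vehicle for the sperm genes, and 0.22 with vitamin D and 0.29 with vehicle for all tested genes. For the sperm genes the vitamin D value was 0.18 without vitamin D library 5, and the vehicle value was 0.22 without vehicle libraries 2 and 3.

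With vehicle libraries 2 and 3 left out, most sperm genes were called lower with vitamin D. These libraries were picked out because sperm genes are low in them, so these counts describe the other 10 libraries and are no test of the treatment. In that fit edgeR called 59 of 75 sperm genes lower and 1 higher, against 13.8% lower and 14.8% higher of all tested genes (28.6% in either direction). The lower genes were 26 of 28 msp, 11 of 12 ssp, 7 of 7 nspd, 2 of 2 gsp and 13 of 26 spe genes. The 2 msp genes not called were msp-51 (edgeR adjusted p = 0.0506) and msp-56 (edgeR adjusted p = 0.186), and the gene called higher was spe-44 (log2 fold change 0.20, edgeR adjusted p = 0.0305). The median log2 fold change was -1.13, against 0.02 for all tested genes.

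**Figure D2:**
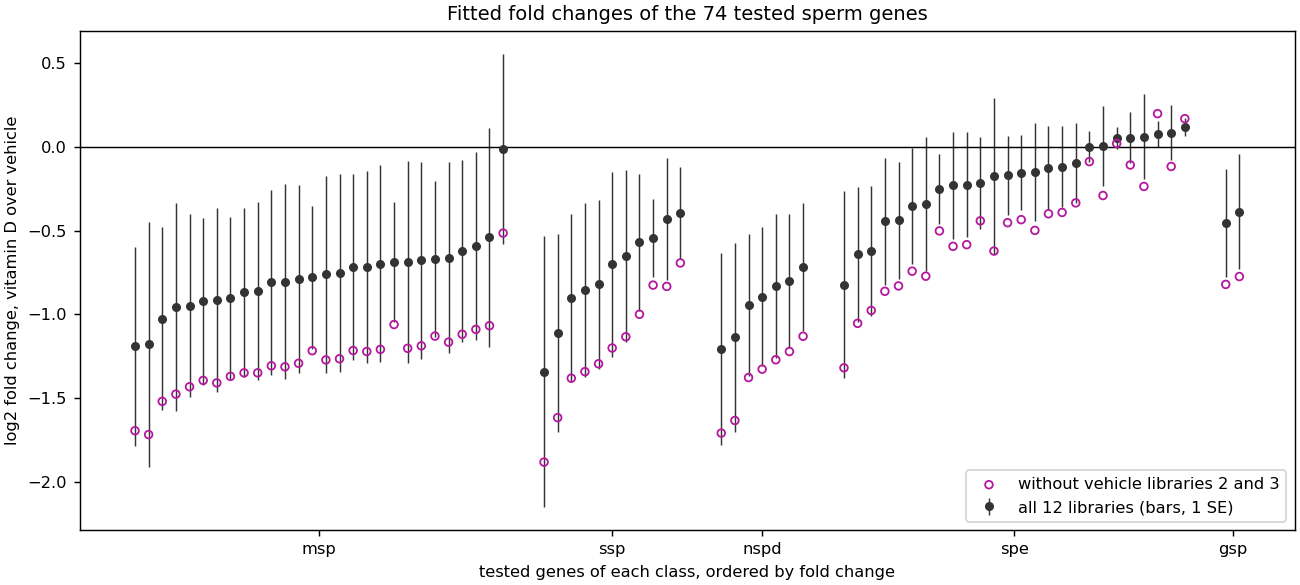
Log2 fold change, vitamin D over vehicle, of the 74 tested sperm genes (one position per gene, ordered within each class), with filled points and bars of 1 SE from all 12 libraries and open circles from the fit without vehicle libraries 2 and 3. The filled points have a median of -0.67, the open circles lie lower for most genes, and several spe genes lie near 0 in both fits.

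The msp genes are short genes without introns that lie in a few blocks. All 28 have 1 exon, of 234 to 384 bases, and in WBcel235 they lie on chromosome II (10 genes) and chromosome IV (18 genes). On chromosome II, 10 msp and 2 nspd genes lie between 4785898 and 5810330. On chromosome IV, 9 msp, 2 ssp and 2 nspd genes lie between 4994371 and 5316906, and 9 msp, 3 ssp, 2 nspd genes and 1 spe gene lie between 9689015 and 10269187. Of the 76 genes, 47.4% are on chromosome IV, against 18.7% of protein-coding genes with a count, and 0 are on the X chromosome, against 15.9%. The msp copies are close to identical in sequence, and no source used here says how reads that match several copies were counted. The level of a single copy is therefore uncertain, and the class sum depends less on how reads were divided.

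Per kilobase of exon, msp-40, msp-81 and msp-76 had the highest mean levels of the class, at 525, 469.5 and 414 CPM per kb. For msp-40 (II, 4825414 to 4825797) the lowest, median and highest values were 120, 142 and 246 CPM with vitamin D and 53.2, 313 and 390.4 CPM with vehicle. Vehicle libraries 2 and 3 were below every vitamin D library and the other 4 vehicle libraries above every one, vitamin D library 5 included. Its log2 fold change was -0.67 (SE 0.47, edgeR adjusted p = 0.525). For msp-81 (IV, 9836034 to 9836417) the values were 96.6, 113 and 204 CPM with vitamin D and 38.6, 289.5 and 415 CPM with vehicle, and its fold change was -0.87 (SE 0.51, edgeR adjusted p = 0.437). For msp-76 (IV, 9689015 to 9689398) they were 83.5, 94.9 and 227 CPM with vitamin D and 24.6, 256 and 338 CPM with vehicle, with a fold change of -0.75 (SE 0.59, edgeR adjusted p = 0.579). Both had the order of libraries seen for msp-40.

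The smallest p-values of the class belonged to msp-55, msp-74 and msp-50, and none of them passed. In vitamin D libraries 1 to 6, msp-55 (IV, 5055631 to 5056014) had 47.2, 48.2, 45.2, 54.1, 141 and 61.4 CPM. In vehicle libraries 1 to 6 it had 201, 24.3, 22.1, 281, 187 and 190.3 CPM. Vitamin D library 5 was well above the other vitamin D libraries, and the vehicle libraries lay in a low pair and a high set on either side of the vitamin D values. Its fold change was -1.19 (SE 0.59, edgeR adjusted p = 0.349), the lowest of the class. The values of msp-50 were 48.1, 60.7 and 129 CPM with vitamin D and 22, 185 and 244 CPM with vehicle (lowest, median, highest), with a fold change of -1.02 (SE 0.54, edgeR adjusted p = 0.386). Of the class, msp-74 had the narrowest range over the 12 libraries, 5.34 times from lowest to highest, at 2.21, 3.73 and 4.398 CPM with vitamin D and 1.65, 6.59 and 8.79 CPM with vehicle (edgeR adjusted p = 0.375).

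Most copies varied far less as a share of the msp counts than the sum itself did. As a share of the counts of all 28 msp genes, 15 copies varied by less than 1.5 times over the 12 libraries, and the median copy by 1.48 times. The steadiest, msp-152, held 5.25% to 5.82% with vitamin D and 5.02% to 5.82% with vehicle. Of the 28 copies, 2 (7.14%) had shares that did not overlap between the treatments, and both were singled out after their values were seen. The share of msp-56 was 2.66% to 3.32% with vitamin D and 1.27% to 2.39% with vehicle, and that of msp-50 was 3.54% to 4.03% with vitamin D and 4.07% to 4.95% with vehicle. At the level of CPM the treatments overlapped for both genes, and msp-56 had the log2 fold change nearest 0 of the class, -0.01 (SE 0.57, edgeR adjusted p = 0.993). The share of msp-142 was 2.16% to 2.80% with vitamin D, and with vehicle it was highest in libraries 2 and 3, at 3.77% and 4.49%, and 2.31% to 2.75% in the others. This gene was also named for its values.

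**Figure D3:**
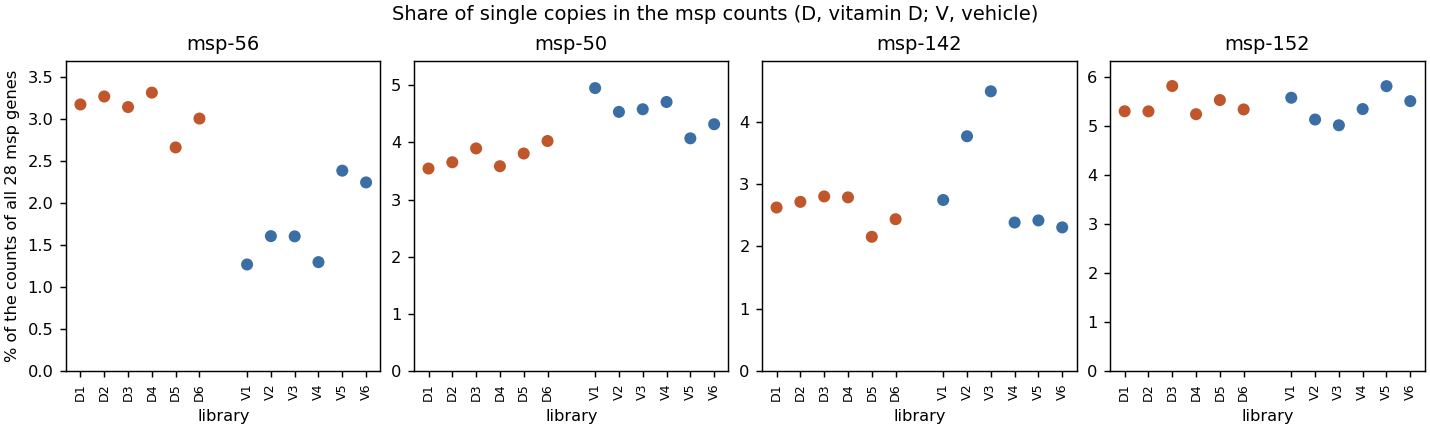
Share of 4 msp copies in the counts of all 28 msp genes, in percent, in the vitamin D (D1 to D6) and vehicle (V1 to V6) libraries. The msp-56 points of the vitamin D libraries, 2.66% to 3.32%, lie above all vehicle points and the msp-50 points below them; msp-142 is highest in V3 and V2, and msp-152 stays between 5.02% and 5.82%.

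The ssp genes, a family of short sperm-specific genes, followed the msp genes. Per kilobase, ssp-10, ssp-16 and ssp-35 had the highest mean levels, at 139, 130.3 and 125 CPM per kb. The gene with the smallest p of all sperm genes was ssp-16 (I, 6102067 to 6102396), with 29.1, 34.96, 35.96, 39.4, 41.1 and 29.3 CPM in vitamin D libraries 1 to 6. In vehicle libraries 1 to 6 it had 65.6, 29.1, 27.8, 74.6, 55.8 and 53.2 CPM. All vitamin D values lay below the 4 high vehicle libraries and above vehicle library 3, and vehicle library 2 was level with the lowest of them. Its fold change was -0.54 (SE 0.23, edgeR adjusted p = 0.261).

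The 10 other tested ssp genes had fold changes of -1.34 to -0.40, with edgeR adjusted p-values of 0.386 to 0.607. Fold changes were -0.70 (SE 0.55) for ssp-10, -0.57 (SE 0.41) for ssp-35 and -0.90 (SE 0.50) for ssp-9, and each had vehicle libraries 2 and 3 as its lowest. For ssp-33 the lowest, median and highest values were 2.56, 3.49 and 7.97 CPM with vitamin D and 1.29, 11.62 and 16.8 CPM with vehicle, and its fold change was -1.11 (SE 0.59, edgeR adjusted p = 0.386). The widest range of any tested sperm gene was that of ssp-19, at 1.38, 1.71 and 9.14 CPM with vitamin D and 0.244, 10.2 and 14.9 CPM with vehicle. Its highest library, vehicle 4 (477 counts), had 61.0 times the level of its lowest, vehicle 3 (8 counts). The low-count gene ssp-37 had 162 counts in vitamin D library 5 against 1 to 4 in the other vitamin D libraries, and 0 to 20 in the vehicle libraries. Both ssp-19 and ssp-37 are named for values seen in these data.

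The nspd genes, which code for short peptides of a nematode-specific family, had the most negative median of the classes. Each of the 7 tested genes has 1 exon of 213 or 216 bases, and their adjusted p-values were 0.284 to 0.387. Per kilobase, nspd-1 had the highest mean level of the class, 426 CPM per kb, with 50.2, 58.9 and 100.3 CPM with vitamin D and 27.7, 145 and 188 CPM with vehicle (lowest, median, highest). The next levels were those of nspd-2 and nspd-5, at 340.0 and 264 CPM per kb, with fold changes of -1.14 (SE 0.56) and -0.89 (SE 0.41). The lowest fold change was that of nspd-3 (IV, 5162826 to 5163041), which had 23.5, 29.2 and 62.7 CPM with vitamin D and 9.73, 96.3 and 144 CPM with vehicle. Its fold change was -1.21 (SE 0.57, edgeR adjusted p = 0.323). For nspd-7 the values were 24.7, 30.5 and 46.95 CPM with vitamin D and 16.4, 73.5 and 114 CPM with vehicle, and its fold change was -0.94 (SE 0.42, edgeR adjusted p = 0.284). In all 7 genes vehicle libraries 2 and 3 were the lowest of 12 and vitamin D library 5 was the highest of its treatment. Of nspd-8, 0 counts were found with vitamin D and 0 or 1 per library with vehicle.

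The phosphatase genes gsp-3 and gsp-4, close copies that may share reads, gave similar values. In vitamin D libraries 1 to 6, gsp-3 (I, 4709259 to 4710712) had 82.1, 95.2, 86.6, 102, 131 and 84.3 CPM. In vehicle libraries 1 to 6 it had 152.4, 54.9, 52.05, 208, 168 and 161 CPM. All vitamin D values lay above vehicle libraries 2 and 3 and below the other vehicle libraries. Its fold change was -0.45 (SE 0.32, edgeR adjusted p = 0.535). The values of gsp-4 (I, 3838237 to 3839673) were 63.1, 68.3 and 103 CPM with vitamin D and 33.8, 118 and 142.4 CPM with vehicle (lowest, median, highest), with a fold change of -0.39 (SE 0.34, edgeR adjusted p = 0.621).

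Among the spe genes, those for fertilization had a median fold change nearer 0 than that of the msp genes, and the difference was not tested. Of the 7 tested, 0 were called lower or higher, near the 3.66% called among all tested genes. Among the 7, 5 were negative and the median log2 fold change was -0.13. The gene spe-9 codes for a sperm membrane protein with EGF-like repeats that is needed to fertilize the oocyte. It had 11.2, 12.4 and 14.8 CPM with vitamin D and 6.49, 16.5 and 19.4 CPM with vehicle (lowest, median, highest), and a fold change of -0.17 (SE 0.24, edgeR adjusted p = 0.761). Vehicle libraries 2 and 3 were its lowest and the other vehicle libraries its highest. The fold change was -0.13 (SE 0.25) for spe-38, another sperm membrane protein. It was 0.06 (SE 0.25) for spe-42 and 0.05 (SE 0.15) for spe-49, a related pair of membrane proteins. Both secreted factors had lower values, -0.34 (SE 0.40) for spe-51 and -0.62 (SE 0.39) for spe-36, at a mean of 1.58 and 1.88 CPM per kb, near the bottom of the spe range of 1.52 to 113 CPM per kb.

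The genes of sperm activation, the step in which a round spermatid becomes a crawling sperm, varied more. Of the 9 tested, 0 were called, near the 3.66% called among all tested genes. Among the 9, 8 were negative and the median was -0.17. Of the spe-8 pathway, spe-8, a tyrosine kinase, had 9.87, 11.04 and 14.1 CPM with vitamin D and 4.91, 16.8 and 22.98 CPM with vehicle, and its log2 fold change was -0.35 (SE 0.35, edgeR adjusted p = 0.661). The partner genes spe-12, spe-19, spe-27, spe-29 and spe-43 had -0.17, -0.10, -0.64, -0.22 and -0.23 (edgeR adjusted p from 0.473 to 0.885). The lowest of them, spe-27, had only 1.64, 2.86 and 3.32 CPM with vitamin D and 1.05, 4.88 and 7.61 CPM with vehicle. Of the genes that hold activation back in spermatids, spe-46 and spe-47 had -0.16 (SE 0.22) and -0.15 (SE 0.29). The presenilin gene spe-4 was nearly level, with 56.8, 64.0 and 74.6 CPM with vitamin D and 39.8, 66.7 and 75.6 CPM with vehicle, and a fold change of 0.08 (SE 0.16, edgeR adjusted p = 0.839).

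The 5 genes of the membranous organelles and fibrous bodies, the structures in which spermatocytes pack MSP and membrane, differed from one another. The highest per kilobase of all spe genes was spe-18, needed to assemble MSP into fibrous bodies, at 113 CPM per kb. It had 103, 122, 112, 136, 141 and 95.4 CPM in vitamin D libraries 1 to 6, and 187, 62.2, 53.4, 263, 203 and 193 CPM in vehicle libraries 1 to 6. As in the msp genes, the vitamin D values lay between the low and the high vehicle libraries (fold change -0.44, SE 0.35, edgeR adjusted p = 0.584). The palmitoyltransferase gene spe-10 had 0.00 (SE 0.24). Little variation was seen for spe-5, a subunit of the vacuolar proton pump, with 26.6, 28.7 and 31.0 CPM with vitamin D and 23.4, 28.9 and 33.2 CPM with vehicle (fold change -0.00, SE 0.09, edgeR adjusted p = 0.996). The vesicle trafficking gene spe-39, which also acts outside the germline, had 51.01, 55.6 and 65.95 CPM with vitamin D and 50.3, 54.05 and 58.2 CPM with vehicle, and a fold change of 0.05 (SE 0.07, edgeR adjusted p = 0.735).

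The remaining spe genes included the most and the least variable of the class. The most variable was spe-54, with 10.97, 12.8 and 29.7 CPM with vitamin D and 3.69, 35.1 and 43.8 CPM with vehicle (lowest, median, highest), a range of 11.9 times, and it is named for that range. The sperm-supplied embryonic factor gene spe-11 had 43.5, 52.2 and 67.0 CPM with vitamin D and 19.8, 88.8 and 109 CPM with vehicle (fold change -0.44, SE 0.38, edgeR adjusted p = 0.609). The myosin VI gene spe-15 had 91.7, 98.8 and 153 CPM with vitamin D and 46.8, 149 and 180 CPM with vehicle (fold change -0.23, SE 0.32, edgeR adjusted p = 0.762). In both, vehicle libraries 2 and 3 were the lowest of 12. The reverse was seen for spe-44, a transcriptional regulator of spermatogenesis, with 55.0, 58.9, 56.2, 55.3, 50.8 and 52.8 CPM in vitamin D libraries 1 to 6. It had 47.4, 60.0, 60.0, 50.8, 46.4 and 47.9 CPM in vehicle libraries 1 to 6, so that libraries 2 and 3 were its highest of 12 (fold change 0.07, SE 0.08, edgeR adjusted p = 0.682). The steadiest sperm gene was spe-48, which varied by 1.21 times over all 12 libraries, at 37.96, 38.34 and 40.04 CPM with vitamin D and 33.2, 36.1 and 38 CPM with vehicle (fold change 0.12, SE 0.05, edgeR adjusted p = 0.284). Of the spe genes with a positive fold change, spe-4, spe-10, spe-42 and spe-49 had negative ones, -0.12, -0.29, -0.24 and -0.11, without vehicle libraries 2 and 3, and none of these 4 was called. Exons of 7 spe genes (spe-5, spe-9, spe-27, spe-29, spe-36, spe-38 and spe-49) overlap exons of another protein-coding gene in WBcel235. Some of these overlaps are on the same strand and library strand is not given, so reads in the overlap cannot be assigned to either gene. The overlap was smallest for spe-9 (11586062 to 11586069, of 2024 exon bases). It took the largest part of spe-29 (9934206 to 9934322, of 343 exon bases).

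**Figure D4:**
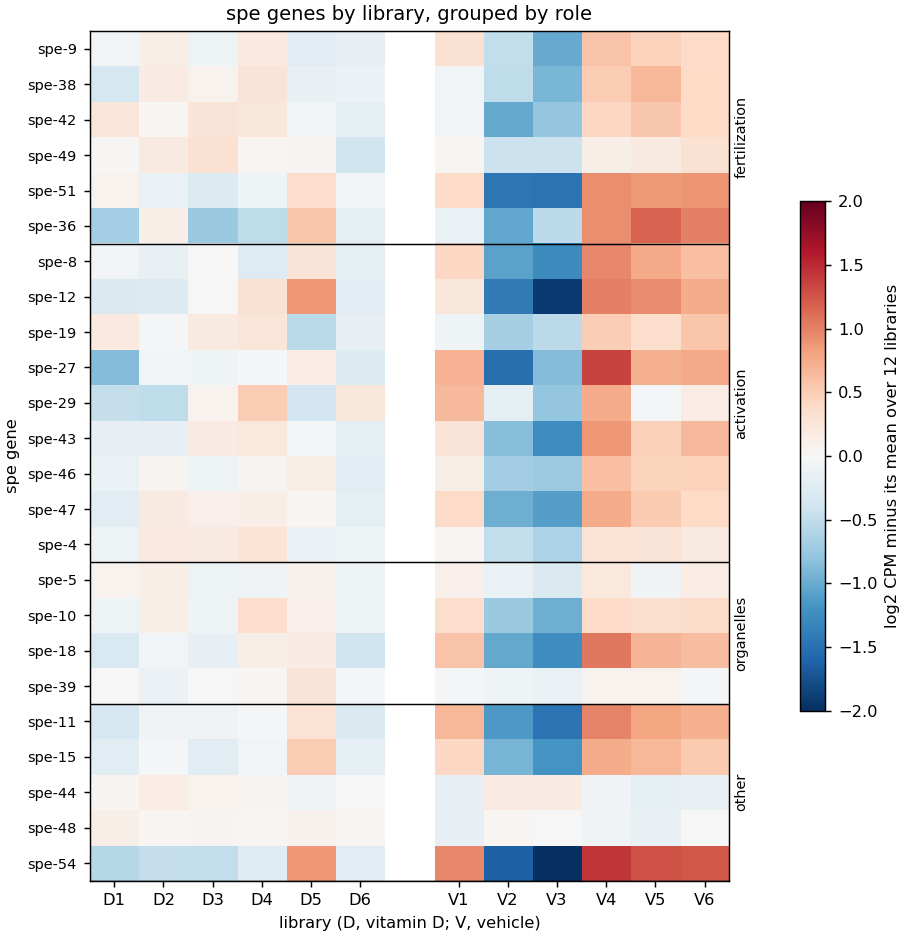
Log2 CPM of 24 spe genes minus each gene's mean over 12 libraries (colour, red above and blue below the mean, colours held at the ends of the scale), with the vitamin D libraries (D1 to D6) left of the vehicle libraries (V1 to V6) and genes grouped by role. V2 and V3 are blue and V4 to V6 red for most genes, the vitamin D libraries are mostly pale, and spe-5, spe-39, spe-44 and spe-48 are pale throughout.

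How far a sperm gene varied went with its class and structure. From lowest to highest library, the median msp gene varied 11.9 times, the median ssp gene 9.04 times, the median nspd gene 6.78 times, the gsp genes 3.99 and 4.21 times and the median spe gene 2.97 times, against 1.94 times for all tested genes. Of the 76 genes, 45 have 1 exon (59.2%), against 2.61% of protein-coding genes with a count. The 44 tested genes with 1 exon varied by a median of 11.56 times, with a median log2 fold change of -0.80, and the 30 with more exons by 3.11 times, with -0.20. All msp and nspd genes have 1 exon and all spe and gsp genes have more. Outside the ssp genes, class and exon number therefore cannot be told apart. Short genes outside the sperm classes also had negative fold changes. Of 694 such genes with under 450 bases of exon, 81.0% were negative, against 50.5% of all tested genes. Their median was -0.36, against -0.79 for the 47 sperm genes of that length. Of the 694, 11.5% were called, 77 lower and 3 higher, against 3.66% of all tested genes. Vehicle libraries 2 and 3 were the lowest of 12 for 9.80% of them. In another fit, the trend on exon length of each library's log2 CPM, relative to each gene's mean, was removed first. The sperm genes' median was then -0.36, and the sperm genes were among those used to draw the trend. The part of transcript length in the fold changes was not tested further.

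Spermatogenesis genes outside these classes, taken from a list of 24 of which 14 rows were tested and 4 on chromosome III were at 0, had the pattern of the msp genes. Of the 14, 0 were called lower and 0 higher by edgeR, near the 3.66% called among all tested genes. At an edgeR unadjusted p under 0.05 there were also 0, against 16.7% of all tested genes. Of the 14, 12 were negative and the median was -0.53. The sperm chromatin gene spch-1 had 144 to 210.4 CPM with vitamin D and 66.6 to 408 CPM with vehicle, and the MSP-domain gene msd-2 had 28.5 to 85.0 CPM with vitamin D and 9.82 to 141.5 CPM with vehicle. For smz-1, a gene of sperm meiosis, all vitamin D libraries, at 40.4 to 81.2 CPM, lay between vehicle libraries 2 and 3, at 27.7 and 25.2 CPM, and the other vehicle libraries, at 87.4 to 111 CPM. The dysferlin-family gene fer-1, needed for membranous organelles to fuse, was near level at 51.7 to 68.8 CPM with vitamin D and 52.2 to 62.8 CPM with vehicle (fold change 0.11, SE 0.07, edgeR adjusted p = 0.49). Without vehicle libraries 2 and 3, 12 of the 14 were called lower, against 13.8% of all tested genes in that fit. Only fer-1 and elt-1 were not called. These libraries were picked out because sperm genes are low in them, so this count, too, is no test of the treatment.

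Regulators of the sperm or oocyte fate had small fitted fold changes between the treatments. Among the vehicle libraries fog-3 ran opposite to the sperm genes and gld-1 ran with them. Of 17 tested, 0 were called lower and 0 higher by edgeR, near the 3.66% called among all tested genes. An edgeR unadjusted p under 0.05 was found for 1 of the 17 (nos-3), against 16.7% of all tested genes. The median log2 fold change of the 17 was 0.04. The gene fog-3, needed for germ cells to become sperm, had 19.8, 15.4, 14.8, 12.69, 12.04 and 16.1 CPM in vitamin D libraries 1 to 6. In vehicle libraries 1 to 6 it had 10.4, 28.97, 30.3, 6.61, 6.12 and 7.58 CPM. Vehicle libraries 2 and 3, lowest in msp transcripts, were highest in fog-3, and the vitamin D libraries again lay between them and the other vehicle libraries (fold change 0.01, SE 0.42, edgeR adjusted p = 0.991). The gene fog-1, which acts with fog-3, had 21.6 and 20.5 CPM in vehicle libraries 2 and 3, 10.6 to 13.2 CPM in the other vehicle libraries and 12.04 to 21.2 CPM with vitamin D. For tra-2, tra-3, mog-4 and mog-5, too, libraries 2 and 3 were the highest with vehicle. In contrast, gld-1 had 337 and 303 CPM in vehicle libraries 2 and 3. It had 493 to 626 CPM in the other vehicle libraries and 373 to 686 CPM with vitamin D. Vehicle libraries 2 and 3 were also the lowest of 12 for fem-3, gld-2, gld-3, rnp-8 and daz-1. Little variation was seen for fem-1, at 92.6 to 102 CPM over the 12 libraries. Without vehicle libraries 2 and 3, 3 of the 17 (fog-3, tra-2 and tra-3) were called higher with vitamin D and 0 lower, a share near the 14.8% of all tested genes called higher in that fit.

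Markers of other cells moved with the sperm genes in part. Of 14 oocyte genes, 4 on chromosome III (egg-1, egg-2, cpg-1 and cpg-2) were at 0. The other 10 were tested and 0 were called, against 3.66% of all tested genes. The sum of the oocyte genes was 428 to 1837 CPM with vitamin D and 376 to 1281 CPM with vehicle. Their median log2 deviation was -0.66 and -0.83 in vehicle libraries 2 and 3, 0.46 to 0.75 in the other vehicle libraries, 1.35 in vitamin D library 5 and -0.57 to -0.35 in the other vitamin D libraries. The yolk protein gene vit-2, made in the adult hermaphrodite intestine, had 2646 CPM in vitamin D library 5 and 29.8 to 117 CPM in the other vitamin D libraries. With vehicle it had 67.8 and 59.7 CPM in libraries 2 and 3 and 668 to 981 CPM in the others. Intestine genes that do not code for yolk did not follow vit-2. The gene ges-1 had 75.2 and 81.1 CPM in vehicle libraries 2 and 3 and 57.3 to 68.5 CPM in the other vehicle libraries. It had 58.0 CPM in vitamin D library 5 and 71.2 to 84.8 CPM in the other vitamin D libraries. The gene elt-2 had 31.1 to 42.4 CPM over the 12 libraries. A germline list was made up of pgl-1, pgl-3, glh-1, glh-4, deps-1, htp-1, htp-3, him-3, syp-1 and rec-8. Its median deviation was between -0.15 and 0.29 in all 12 libraries, and 0 of 10 were called, against 3.66% of all tested genes. Of 10 genes of male tissues and seminal fluid, 5 were tested and 0 called, against 3.66% of all tested genes. The sum of the 10 was 55.1 to 69.8 CPM with vitamin D and 35.4 to 90.2 CPM with vehicle. Of these genes, pkd-2, lov-1, cwp-1, cwp-2 and cwp-3, which mark male neurons, had at most 0.383 CPM in every library. Of the same family, cwp-4 had 0.792 to 1.90 CPM with vitamin D and 0.603 to 1.53 CPM with vehicle, and cwp-5 had 0.347 to 0.872 CPM with vitamin D and 0.419 to 0.686 CPM with vehicle. The male tail regulator mab-3 had 14.2 to 29.9 CPM with vitamin D, 36.1 and 36.9 CPM in vehicle libraries 2 and 3 and 2.96 to 12.1 CPM in the other vehicle libraries. Of the tested embryo, somatic gonad and intestine genes, 0 were called, against 3.66% of all tested genes. Of 3 body wall muscle genes, 1 was called, against 3.66% of all tested genes. This was unc-54, higher with vitamin D (log2 fold change 0.24, SE 0.055, edgeR adjusted p = 0.0326). The part of oocyte, yolk and stage differences in the sperm gene values was not tested.

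**Figure D5:**
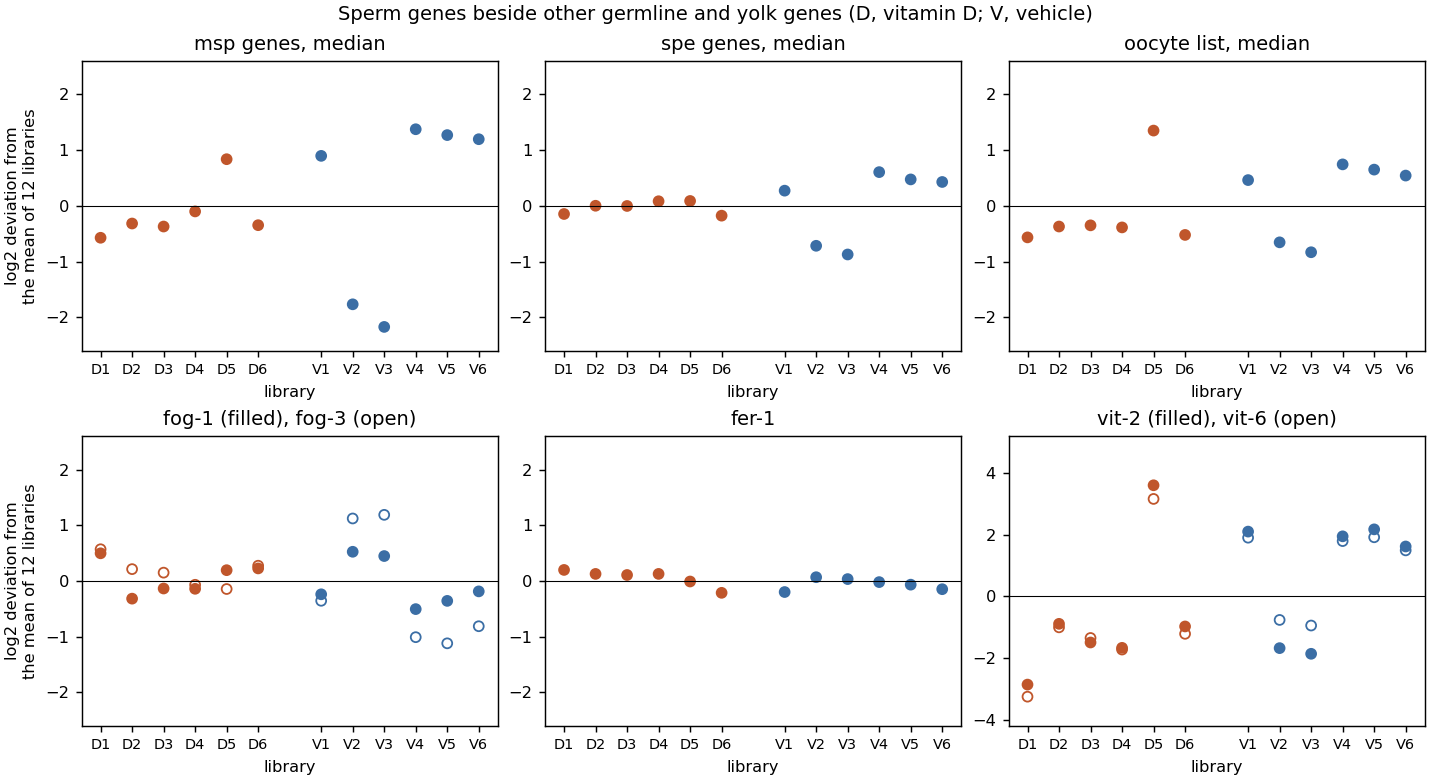
Log2 deviation from the mean of the 12 libraries for the median msp gene, the median spe gene, the median oocyte gene, fog-1 and fog-3, fer-1, and vit-2 and vit-6, in vitamin D (D1 to D6) and vehicle (V1 to V6) libraries; the last panel has a wider axis. The msp and oocyte medians are low in V2 and V3 and high in D5 and in V1 and V4 to V6, fog-3 runs the other way in the vehicle libraries, and fer-1 is near 0 throughout.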

How the data were processed

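The authors deposited raw read counts per gene for 12 libraries and a second table of CPM, which equalled count over library total to within 2.91e-11 and was used only for that check. The submitters' processing notes name edgeR 3.12.1. Aligner, counting tool, build and strand were not given in the sources used here, and rows were matched by sequence name to the WBcel235 annotation (27187 to 1 gene, 3 to several, 738 to none).

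Counts were tested with edgeR 4.0.16 in R 4.3.3 (filterByExpr with a minimum count of 10 and minimum total of 15, TMM factors, robust glmQLFit, glmQLFTest, treatment as the only term), with Benjamini-Hochberg adjustment over 13460 genes. The procedure was tested on simulated data. DESeq2 1.42.0 was an alternative. Other alternatives changed the scaling, the filter, the length trend, the replicate block or the libraries used, and leaving out vehicle libraries 2 and 3 together was added after seeing the data. Log2 values per library used a prior count of 2. Class sums, spreads, shares and counts over lists are descriptions without a test. All p-values are two-sided and set the difference between the treatments against the spread between pools.

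The genes and lists were chosen with earlier results of these data known. The genes named with values were gsp-3 and gsp-4, per class the 3 with the highest mean CPM per kb and the 3 with the smallest p, and spe genes of known role. Other names were picked after their values were seen. Of the spe genes, 2 are counted in the class but their own values are not reported here.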

Additional observations from a re-analysis of the deposited data

Results flagged for a closer look

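Vitamin D library 5 stood far from the other vitamin D libraries in 19 of 98 groups of 6 values that were checked, and it was the sample flagged in all 19. A value was flagged where the gap to the nearest library, as a share of the range of the 6, passed Dixon's critical value for 6 values. Chance flags about 1 in 20 groups, and the sperm genes are not independent of each other.

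For the class sums this share was 0.776 for msp, 0.747 for ssp, 0.646 for nspd and 0.663 for gsp. Among msp genes it was 0.684 for msp-40, 0.792 for msp-50, 0.83 for msp-55, 0.74 for msp-76 and 0.656 for msp-81. Among ssp genes it was 0.805 for ssp-10, 0.663 for ssp-35, 0.828 for ssp-9 and 0.98 for ssp-37. For the nspd genes it was 0.777 for nspd-2, 0.761 for nspd-3 and 0.66 for nspd-5. It was 0.75 for gsp-4, 0.774 for spe-15 and 0.651 for spe-39. In each of these vitamin D library 5 was the highest of its treatment.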

How the results depend on the processing

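The call of 0 lower and 0 higher sperm genes held under DESeq2, other scalings, other filters, the length trend removed, the replicate block and each library left out in turn (0 to 0). Without vehicle libraries 2 and 3, which was chosen after seeing the data, 59 sperm genes were lower and 1 higher, 12 of 14 other spermatogenesis genes were lower, 3 of 17 fate regulators were higher, against 13.8% lower and 14.8% higher of all tested genes, and the median SD of log2 CPM among vehicle libraries was 0.219. The SD among vitamin D libraries ran from 0.177, without library 5, to 0.424 with 1 library left out. The median log2 fold change of the sperm genes ran from -0.904 to -0.496 in the same way. Only spe genes reversed, among the 43 named genes, and their main log2 fold changes ran from -0.22 (spe-29) to 0.08 (spe-4). By setting, spe-10 was -0.002 with at least 1 CPM in 6 libraries. With the length trend removed, spe-29 was 0.196, spe-38 0.018, spe-42 -0.015 and spe-49 -0.017. Without vehicle libraries 2 and 3, spe-10 was -0.291, spe-4 -0.118, spe-42 -0.237 and spe-49 -0.109. For spe-5 the value was 0.056 with total counts and 0.003 with no filter. With 1 library left out, the values ran from -0.143 to 0.076 for spe-10, -0.392 to 0.015 for spe-12, -0.215 to 0.017 for spe-19, -0.274 to 0.013 for spe-38, -0.02 to 0.148 for spe-4, -0.088 to 0.188 for spe-42, -0.025 to 0.13 for spe-49 and -0.06 to 0.039 for spe-5. The cause was not tested.

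With the replicate number as a block, 0 sperm genes were lower and 0 higher, the median was -0.294, and spe-12 (0.091) and spe-5 (0.006) reversed. The numbers are not stated to pair the libraries. Deviations of same-numbered libraries from their group means correlated at -0.418 to 0.441, and only libraries 4 and 5 correlated best with their own number. Because libraries of 1 treatment differed widely, these correlations cannot show whether same-numbered pools were handled together.

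Whole-worm RNA, near-identical msp copies and the unstated counting method limit single-gene values, and the low counts of ssp-19 and ssp-37 limit theirs.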

Other observations

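The makeup of the msp counts also differed among vehicle libraries. The share of msp-56 was 1.27%, 1.61%, 1.60% and 1.297% in vehicle libraries 1 to 4 and 2.39% and 2.25% in libraries 5 and 6. The share of msp-51 was 3.00%, 2.43%, 2.46% and 3.07% in vehicle libraries 1 to 4 and 4.75% and 4.57% in libraries 5 and 6. For msp-51 vehicle libraries 5 and 6 lay inside the vitamin D range, 3.40% to 5.25%, and libraries 1 to 4 below it, and for msp-56 all 6 lay below the vitamin D range, 2.66% to 3.32%. The msp sums of vehicle libraries 5 and 6, 4645 and 4465 CPM, lay between those of libraries 1 and 4, 3648 and 5186 CPM. These copies were singled out after their values were seen.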
